A study of Macaca mulatta with 5 samples.

Results

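Topologically associating domains (TADs) are stretches of a chromosome whose loci contact each other more than they contact loci beyond the ends, and Hi-C reads them by crosslinking, cutting, religating and sequencing chromatin so that each read pair joins loci that lay close together. The domains described here are those shorter than 1.2 Mb, measured as end minus start in the deposited domain lists of cortical neurons from rhesus monkeys (Macaca mulatta). By this rule 257 of 1198 domains were small in the saline map and 270 of 1244 in the morphine map. The 2 maps were kept as separate sets.

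In mammals many domain boundaries are sites where the DNA-binding protein CTCF halts cohesin, the ring complex that extrudes chromatin into loops. A boundary that insulates weakly lets loci on its sides contact each other, and it is more easily missed or displaced by a domain caller. Loops join 2 loci that meet more often than neighbouring pairs do, and in neurons as in other cells many of them join promoters, enhancers and CTCF sites within a domain.

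Neurons were purified from the cortex of male monkeys aged 3 to 4 years. The morphine group was given morphine, which activates mu-opioid receptors, under the skin 3 times daily over 90 days, the dose climbing from 3 to 15 mg/kg, and the saline group had equal volumes of saline on the same schedule. Each group held 2 monkeys, while the labels list 3 morphine and 2 saline libraries, so the morphine libraries cannot all come from different monkeys, and the labels do not tell which ones share an animal. Each file is 1 list per group and was taken as pooled over its libraries. No value belongs to a single library, so differences between the maps carry no replicate check and no p-value, and purity of the neurons cannot be checked in these files. All intervals given are 95% intervals that cover counting error or the spread over domains within a map, and domains along a chromosome are not independent of each other.

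The depth of the libraries is unknown. The called loop pixels held 119909 contacts over 5507 loops in the saline list and 239042 contacts over 8425 loops in the morphine list, so counts of loops are set against the rest of the same map wherever possible. Positions are counted from 1 as the files give them. The rhesus assembly they belong to is not named, so no gene or sequence was assigned to a domain.

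Small domains made up 21.5% of the saline domains (exact interval 19.2 to 23.9) and 21.7% of the morphine domains (19.4 to 24.1). The difference was 0.252 percentage points (-3.02 to 3.51). They covered 224 Mb of 2637 Mb of saline domain length (8.51%) and 231 Mb of 2637 Mb of morphine domain length (8.75%). The median size was 0.92 Mb in both sets, with quartiles of 0.720 and 1.04 Mb in both. These sizes follow in part from the rule and are given as a description.

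Small domains were more numerous near the limit than at the shortest sizes, and few were very short. Domains of 1 Mb or more numbered 103 of 257 in the saline and 102 of 270 in the morphine set, and domains under 600 kb numbered 27 and 37. At the last step under the limit, 1.16 Mb, there were 21 saline and 16 morphine domains, with median scores of 0.599 and 0.714 at their ends and 1.68 and 2.86 loops per Mb. At 1.2 Mb, just outside, there were 17 and 24 domains, with median scores of 0.645 and 0.539 and 1.91 and 3.09 loops per Mb. Of the ends at these steps, 52.4% of saline and 56.2% of morphine ends had a boundary in the other map at 1.16 Mb, and 61.8% and 56.2% had one at 1.2 Mb.

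**Figure D1:**
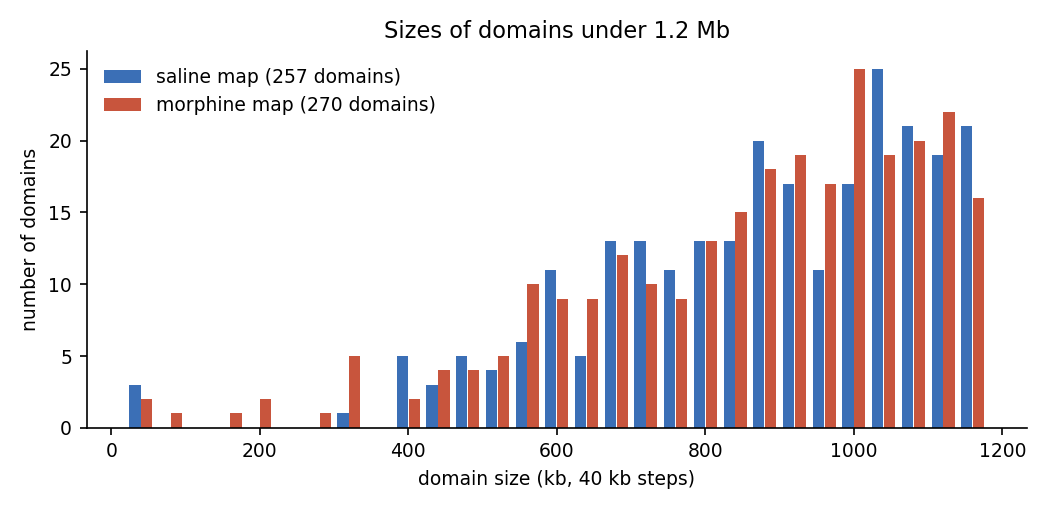
Number of domains (vertical axis) by domain size in kb (horizontal axis, steps of 40 kb) for domains under 1.2 Mb in the saline map (blue, 257 domains) and the morphine map (red, 270 domains). Both sets thin out below 600 kb, and 3 saline and 2 morphine domains are 1 bin of 40 kb long.

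A few entries were shorter than any other and had equal scores at both ends. The saline list held 3 domains of 40 kb, a single bin of the map, and its next shortest domain was 320 kb. Chromosome 3 had one at 95800001 to 95840000, chromosome 12 one at 113960001 to 114000000, and chromosome 16 one at 9560001 to 9600000. The morphine list held 2 of 40 kb, at 22440001 to 22480000 of chromosome 14 and at 61840001 to 61880000 of chromosome 16, and 1 of 80 kb at 88360001 to 88440000 of chromosome 5. Each of these 6 domains carried the same score at both of its ends, and no other domain of either list did. None held a loop of either map. The saline domain on chromosome 12 filled part of a wider gap between domains of the morphine map, which ended at 113920000 and began again at 114000001.

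The other shortest domains differed from these. The morphine domain on chromosome 7 from 143800001 to 143960000 was 160 kb long, had scores of 0.530 and 0.568 at its ends, and lay inside a saline domain of 8.72 Mb. The morphine domain on chromosome 14 from 6440001 to 6640000 was 1 of 2 that were 200 kb long and held 3 morphine loops and 1 saline loop. The saline domain on chromosome 16 from 9200001 to 9520000 was 320 kb long and adjoined the 40 kb domain at 9560001. In the morphine map a single domain of 0.560 Mb, from 9080001 to 9640000, covered both. The saline domain on chromosome 1 from 221080001 to 221480000, 1 of 5 saline domains of 400 kb, held 1 saline and 2 morphine loops.

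Small domains were spread over all chromosomes, and no chromosome's share had an interval clear of the others. The saline shares ran from 8.00% of the domains of chromosome 18 (2 of 25) to 30% of those of chromosome 17 (12 of 40). The morphine shares ran from 7.69% on chromosome 18 (2 of 26) to 34.7% on chromosome 8 (25 of 72, 23.9 to 46.9). Chromosomes 13, 18, 19 and 20 had at most 5 small domains each in either map. Per 100 Mb of domain length, chromosome 3 held the most in the saline map (14.4) and chromosome 8 the most in the morphine map (18.8), and chromosome 18 held the fewest in both (3.11 and 3.11).

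The counts of the 2 maps differed most on chromosomes 5 and 8, which were singled out after their values were seen. Chromosome 5 held 13 small domains in the saline and 25 in the morphine map (ratio 1.92, 0.947 to 4.09), and chromosome 8 held 16 and 25 (1.56, 0.802 to 3.13). Both intervals include equality. On the remaining chromosomes the maps held 228 and 220 small domains. Of the 25 morphine domains on chromosome 5, 15 lay inside a single longer saline domain, against 5 of the 13 saline domains inside a longer morphine domain. On chromosome 8 these counts were 13 of 25 and 6 of 16. In the other direction chromosome 6 went from 18 in the saline map to 12 in the morphine map (0.667, 0.293 to 1.46) and chromosome X from 13 to 8 (0.615, 0.221 to 1.60). Over all 21 chromosomes, 9 had more small domains in the morphine map, 8 had fewer and 4 had as many, and the ratio of the totals was 1.05 (0.882 to 1.25).

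**Figure D2:**
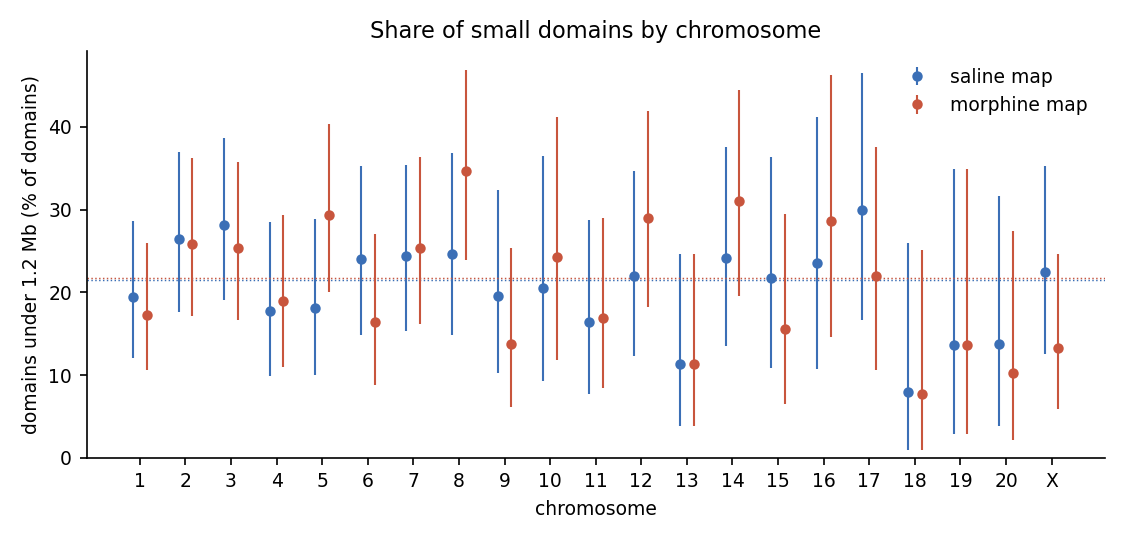
Share of domains under 1.2 Mb among all domains of a chromosome (vertical axis, percent) by chromosome (horizontal axis), in the saline map (blue) and the morphine map (red). Bars are exact 95% intervals and dotted lines the share over all chromosomes (21.5% and 21.7%); the largest gap is on chromosome 5, at 18.1% against 29.4%, and the intervals overlap on every chromosome.

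Chromosomes 10, 16, 19 and 20, a set taken from earlier results of these data and not derived here, held 23 of the 257 saline and 25 of the 270 morphine small domains (8.95% and 9.26%). They held 10.7% of the saline and 10.1% of the morphine domains of 1.2 Mb or more. The differences of -1.78 points (-5.40 to 2.72) and -0.802 points (-4.36 to 3.61) were not resolved.

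Neighbours of small domains were not small more often than neighbours of longer ones. A neighbour of a small saline domain was itself small in 108 of 506 cases (21.3%, 17.9 to 25.2), and a neighbour of a longer domain was small in 398 of 1848 cases (21.5%, 19.7 to 23.5). The morphine shares were 100 of 532 (18.8%, 15.6 to 22.4) and 432 of 1914 (22.6%, 20.7 to 24.5). Most small domains stood alone between longer ones, 161 in the saline and 179 in the morphine map. Of the 42 domains at chromosome ends, 8 were small in each map.

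The longest runs lay at 1 place in both maps. On chromosome 12 the saline map had 5 small domains in a row from 112280001 to 116240000, and 1 of these was the 40 kb entry named above. The morphine map had 4 in a row from 112320001 to 116200000, with the same 4 longer members within 40 kb at every end. The outer ends of the run were its strongest, with scores of 1.12 and 1.19 in the saline and 0.900 and 1.14 in the morphine map. The boundaries between members had scores from 0.423 to 0.572 in the saline and from 0.414 to 0.612 in the morphine map. The second morphine run of 4, on chromosome 8 from 104720001 to 108240000, had no such counterpart. The saline map had domains of 2040 and 1400 kb over most of that stretch, and the 3 boundaries inside the run had morphine scores of 0.457, 0.381 and 0.361. The saline boundary between those 2 domains, between 106640000 and 106680001, fell in the same bin as the morphine boundary of score 0.381.

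The ends of small domains were weaker boundaries than the ends of longer domains in both maps. The deposited boundary score, whose scale is not stated, had a median of 0.586 (0.561 to 0.613, 514 ends) at small and 0.719 (0.699 to 0.737, 1882 ends) at longer saline domains. In the morphine map it was 0.559 (0.524 to 0.590, 540 ends) and 0.691 (0.671 to 0.714, 1948 ends). The difference of the medians was -0.132 in each map, and the intervals of the medians did not overlap. Small domains had the lower median on 19 of 21 chromosomes in the saline map, all but chromosomes 10 and 20, and on 20 of 21 in the morphine map, all but chromosome 20. Boundaries were kept by the lists only from a score of 0.302 (saline) or 0.3 (morphine) up, so weaker ones are not seen.

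The score rose with domain size through most classes and showed no step at 1.2 Mb. In the saline map the median end score was 0.516 for domains under 0.6 Mb, 0.595 from 0.6 to under 1.2 Mb, 0.638 from 1.2 to under 1.8 Mb and 0.786 from 3 Mb up. The morphine medians of these classes were 0.496, 0.566, 0.616 and 0.773. Boundaries with a small domain on both sides were the weakest, with medians of 0.515 (0.432 to 0.605, n = 54) in the saline and 0.460 (0.422 to 0.500, n = 50) in the morphine map. Those with a small domain on 1 side had 0.611 (0.576 to 0.663, n = 398) and 0.593 (0.561 to 0.631, n = 432), and those between longer domains 0.749 (0.720 to 0.791, n = 725) and 0.733 (0.691 to 0.764, n = 741).

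When the ends of each domain were sorted by score, both were lower in small domains. Weaker ends had a median score of 0.453 in the saline set and 0.449 in the morphine set, and stronger ends 0.757 and 0.725. Longer domains had 0.535 and 0.531 at the weaker and 0.951 and 0.906 at the stronger end. The median gap between the ends of a domain was 0.253 (0.209 to 0.292) and 0.245 (0.198 to 0.283) in the small sets and 0.347 (0.312 to 0.375) and 0.297 (0.275 to 0.318) in longer domains. Of the small ends, 81 of 514 saline (15.8%) and 70 of 540 morphine ends (13.0%) reached the upper quartile of all ends of their map, which began at 0.992 and 0.935. Both ends did so in 6 saline and 3 morphine small domains.

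Some small domains were nevertheless held between strong boundaries, and those with the highest lower score were mostly present in both maps. On chromosome 20 the domain from 29560001 to 30120000 had scores of 1.8 and 2.26 in the saline map, and the morphine map had 1.5 and 2.03 at the ends of its counterpart, which stopped 40 kb earlier. It held no saline and 2 morphine loops. On chromosome 16 the saline domain from 21160001 to 22240000 had scores of 1.52 and 1.03, and its morphine counterpart from 21200001 to 22200000 had 1.60 and 0.958. It held 6 saline loops, and the morphine domain 11 morphine loops. On chromosome 15 the domain from 44720001 to 45560000 had scores of 1.03 and 2.33 in the saline and 0.877 and 2.13 in the morphine map. A saline loop inside it joined 45040001 to 45050000 and 45510001 to 45520000, with 30 contacts against 1.52 expected from its surroundings, an enrichment of 19.7-fold. On chromosome 2 the domain from 200360001 to 201160000 had scores of 1.31 and 1.02 in the saline and 1.27 and 0.883 in the morphine map.

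Others of this group differed. The morphine domain on chromosome 3 from 50880001 to 52040000 had scores of 1.72 and 1.46, and its saline counterpart began 40 kb earlier with 2.14 and 1.64, which made it exactly 1.2 Mb and so no member of the saline set. The saline domain on chromosome 15 from 50920001 to 51600000, with scores of 1.58 and 1.17, had no match at either end. The nearest morphine boundary to its start lay 80 kb away, and a morphine domain of 4.16 Mb covered the interval. The remaining morphine domain of this group was the 40 kb entry on chromosome 14, with a score of 0.885 at both ends.

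**Figure D3:**
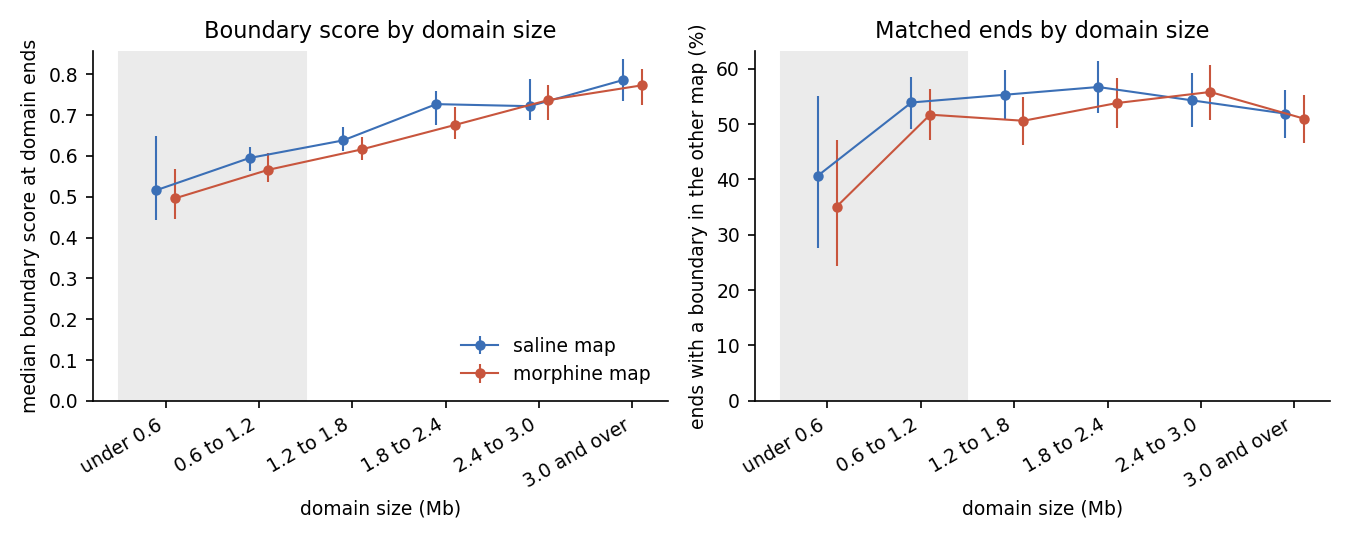
Left, median boundary score at domain ends by domain size class (Mb); right, share of ends (percent) with a boundary of the other map within 40 kb, by the same classes. Blue is the saline and red the morphine map, bars are 95% intervals, and grey marks the small domains. The score rises from 0.516 and 0.496 in the shortest class to 0.786 and 0.773 in the longest, while the matched share lies between 50.6% and 56.7% in every class from 0.6 Mb up.

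At tolerances of 40 and 80 kb the ends of small domains had lower matched shares in the other map than those of longer domains. Whether the intervals of the differences included 0 depended on the tolerance. At 0 kb the morphine share was 22.4% in both small and longer domains, and the saline shares were 21.4% and 24.0%. Within 40 kb, a morphine boundary was present at 270 of 514 small saline ends (52.5%, 48.1 to 56.9) and at 1025 of 1882 other saline ends (54.5%); the share over all saline ends was 54.0%. The difference was -1.93 points (-6.80 to 2.91). In the morphine map 267 of 540 small ends (49.4%, 45.1 to 53.7) and 1024 of 1948 other ends (52.6%) had a saline boundary, with 51.9% over all ends and a difference of -3.12 points (-7.87 to 1.63). With a tolerance of 80 kb the differences were -5.64 points (-10.3 to -1.17) in the saline and -6.05 points (-10.7 to -1.57) in the morphine map, and with a size limit of 1.4 Mb the morphine difference was -5.57 points (-9.83 to -1.28). Domains under 0.6 Mb had the lowest shares, 40.7% (27.6 to 55.0, 54 ends) and 35.1% (24.4 to 47.1, 74 ends). From 0.6 to under 1.2 Mb the shares within 40 kb were 53.9% in the saline and 51.7% in the morphine map. These lay within the range of the longer classes, 51.9% to 56.7% and 50.6% to 55.8%.

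The matched share rose with the score of the end, in small and in longer domains alike. The ends of a map were divided by score into 3 classes of equal size over all domains. Among small saline ends, 44.3% of the lowest class (97 of 219), 52.6% of the middle class (100 of 190) and 69.5% of the highest class (73 of 105) were matched. The longer saline domains had 39.3%, 55.4% and 66.3%. Small morphine ends had 40.6%, 54.3% and 61.2%, and the longer morphine domains 38.0%, 52.9% and 64.1%. Within a class the intervals of small and longer domains overlapped. The lowest class held 42.6% of the small saline and 46.1% of the small morphine ends, against 30.8% and 29.7% of the others.

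Some unmatched ends lay a few bins from a boundary of the other map and others far from any. The nearest boundary of the other map was 80 or 120 kb away for 70 and 41 of the 514 small saline ends and for 74 and 52 of the 540 small morphine ends. It was over 400 kb away for 74 saline (14.4%, 11.5 to 17.7) and 85 morphine ends (15.7%, 12.8 to 19.1). Among longer domains the shares over 400 kb were 8.29% (7.08 to 9.63) and 11.6% (10.2 to 13.1). The intervals were apart in the saline map and overlapped in the morphine map.

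At matched ends the scores were close in the 2 maps. Of the 270 matched small saline ends, 144 had a lower score in the morphine map (53.3%, 47.2 to 59.4), against 58.5% over all matched saline ends. Of the 267 matched small morphine ends, 155 did (58.1%, 51.9 to 64.0), against 58.4% over all matched morphine ends. The median difference, morphine minus saline, was -0.0106 (-0.0314 to 0.00921) and -0.0314 (-0.0471 to -0.0114), and most of these ends belong to both sets.

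As whole units, small domains had counterparts in the other map in a minority of cases. Both ends had a match in 73 of 257 saline (28.4%, 23.0 to 34.3) and 70 of 270 morphine small domains (25.9%, 20.8 to 31.6). The shares over all domains were 31.7% and 30.5%, and the differences from the longer domains, -4.22 points (-10.2 to 2.27) and -5.80 points (-11.5 to 0.429), had intervals that include 0. At a tolerance of 80 kb they were -9.48 points (-16.2 to -2.59) and -9.77 points (-16.3 to -3.05), and with a size limit of 1.4 Mb the morphine difference was -6.26 points (-11.5 to -0.685). Of the saline ones, 1 was the 40 kb entry of chromosome 12, whose ends both met the wider morphine gap. The other 72 saline and all 70 morphine ones had no further boundary of the other map inside, and 12 of them in each set had both ends at exactly the same bin. Where a counterpart existed, it was also under 1.2 Mb for 69 of the 72 saline and 69 of the 70 morphine domains.

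The domains with both ends at the same bin included some of unequal ends. On chromosome 3 from 126960001 to 127960000 the left end had a score of 0.613 in the saline and 0.590 in the morphine map, and the right end 5.62 and 4.70, the highest at any small domain of either map. It held 3 saline and 7 morphine loops. On the same chromosome the domain from 40040001 to 40920000 had 0.651 and 1.51 in the saline and 0.581 and 1.58 in the morphine map, with 2 saline and 7 morphine loops. The domain from 178440001 to 179120000 had saline scores of 0.542 and 1.61 and morphine scores of 0.432 and 1.5, and held no saline and 2 morphine loops. On chromosome 10 the domain from 12560001 to 13600000 had 1.31 and 0.778 in the saline and 1.15 and 0.649 in the morphine map. It held 7 saline and 4 morphine loops, against the general excess of morphine loops. The domain from 21080001 to 22120000 on the same chromosome had 0.704 and 1.29 in the saline and 0.688 and 1.06 in the morphine map, and no loop in either. On chromosome 16 from 66960001 to 67880000 the scores were 0.532 and 0.891 in the saline and 0.635 and 0.671 in the morphine map, with 3 saline and 5 morphine loops.

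The most frequent arrangement of a small morphine domain was to lie inside a single longer saline domain. This held for 129 of 270 small morphine domains (47.8%, 41.7 to 53.9) and for 96 of 257 small saline domains in the morphine map (37.4%, 31.4 to 43.6). The difference between the maps was 10.4 points (1.98 to 18.7). It counts cases where the surrounding domain was itself under 1.2 Mb, 43 of the 129 morphine and 19 of the 96 saline ones. These unequal counts enter the difference, which was not tested without them. Among longer domains the shares were 23.4% in the saline and 24.7% in the morphine map, a difference of 1.36 points (-2.47 to 5.18), and over all domains 26.4% and 29.7%. A short interval has more room inside a longer one, so the share is not set against that of longer domains. The contacts in called loop pixels were unequal between the maps and the depth is unknown, and the part this plays was not tested. With a limit of 1.0 Mb in place of 1.2 Mb the difference was 4.60 points (-6.26 to 15.3).

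A small domain inside a longer one shared 1 of its ends more often than not. Of the 96 saline cases, 67 had 1 matched end, 37 at the start and 30 at the end of the surrounding domain, and 29 had none. Of the 129 morphine cases, 92 had 1 matched end, 42 at the start and 50 at the end, and 37 had none. In the cases with 1 matched end, the end that had no match was the weaker, with 0.407 (0.358 to 0.440) against 0.662 (0.598 to 0.739) in the saline map, and weaker in 55 of 67 domains. In the morphine map it was 0.470 (0.440 to 0.561) against 0.643 (0.543 to 0.696), and weaker in 63 of 92. The surrounding domain had a median size of 2.10 Mb (1.36 to 2.36) for saline and 1.52 Mb (1.28 to 2.12) for morphine small domains. It was itself under 1.2 Mb in 19 and 43 cases.

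**Figure D4:**
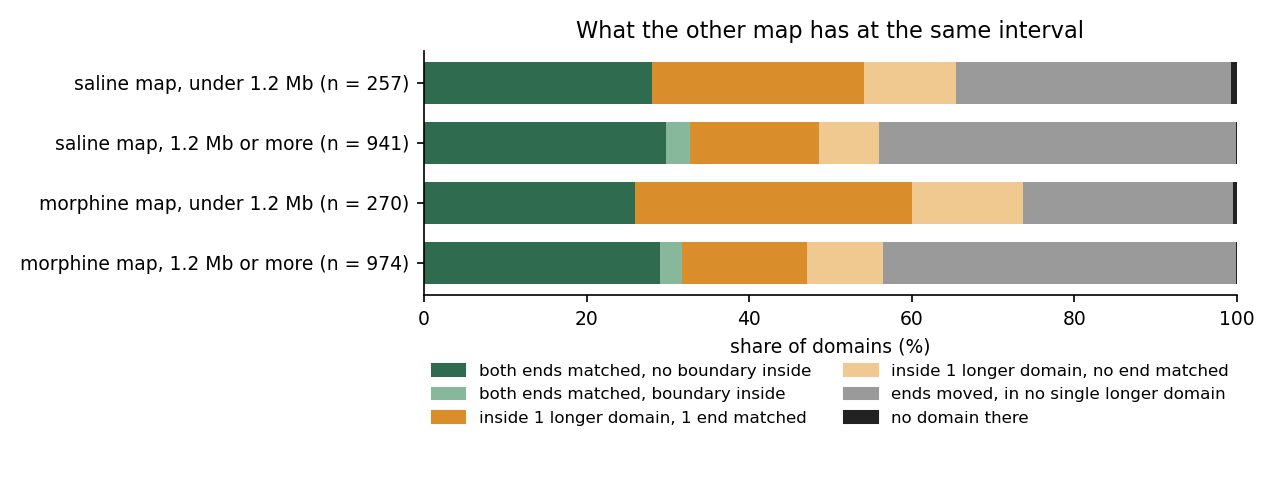
Share of domains (horizontal axis, percent) by what the other map has at the same interval, for small and longer domains of each map (rows, with the number of domains). Orange shades, domains inside 1 domain of the other map over 80 kb longer, take 37.4% of the small saline and 47.8% of the small morphine domains. Dark green, both ends matched with no boundary inside, takes 28.0% and 25.9%.

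The small domains inside the longest domains of the other map ranged from loop-rich to empty. On chromosome 16 the morphine domain from 20000001 to 21160000 took the last part of a saline domain that ran from 16200001 to 21120000 (4.92 Mb). Its start, with a score of 0.700, lay 1160 kb from the nearest saline boundary, while its end, with 1.60, matched a saline boundary of 1.52. It held 16 morphine loops, the most of any small domain, and the saline map had 7 loops in the same interval. Of the 16, 2 were on the authors' deposited list of differential loops. The morphine loop with the most contacts joined 20980001 to 20985000 and 21035001 to 21040000, with 78 contacts against 21.2 expected (3.67-fold).

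Other such domains held few loops. On chromosome 5 the morphine domain from 48200001 to 48880000, with scores of 0.555 and 0.332, lay in a saline domain of 6.28 Mb, far from both of its ends, and held no morphine and 2 saline loops. The morphine domains at 144320001 to 145000000 of chromosome 4 and at 80360001 to 81440000 of chromosome 13 lay at the start and at the end of saline domains of 4.64 Mb each. Their inner ends had scores of 0.599 and 0.420. Among the saline set, the domain on chromosome X from 48520001 to 49680000, with scores of 0.328 and 0.377, lay inside a morphine domain of 5.48 Mb, and held no saline and 3 morphine loops. On chromosome 3 the saline domain from 101880001 to 103000000 began at a boundary of score 2.57, which the morphine map had at 2.95, and ended at one of score 0.434, which the morphine map lacked over a domain of 4.84 Mb. On chromosome X from 56600001 to 57480000 the strong end, 1.98, was matched by 2.27 and the weak one, 0.417, was not. On chromosome 14 from 51360001 to 51960000 the matched end had 0.601 in the saline and 0.350 in the morphine map. On chromosome 4 the saline domain from 30280001 to 30760000 had scores of 0.496 and 0.602 and no match at either end.

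Most of the remaining small domains formed a mixed class, with unmatched ends that lay near a boundary of the other map or far from any. The class held 87 saline (33.9%, 28.1 to 40) and 70 morphine small domains (25.9%, 20.8 to 31.6). At least 1 end had no match, and no domain more than 80 kb longer contained the interval. Some were contained in a domain longer by 80 kb or less. A further 2 saline and 1 morphine small domains overlapped no domain of the other map. Of these, the 40 kb saline entry on chromosome 12 lay in a gap between morphine domains. The saline domain on chromosome 8 from 140720001 to 141880000 lay beyond the last morphine domain. The morphine domain on chromosome 14 from 3760001 to 4840000 lay before the first saline domain. No small domain had both ends matched and a further boundary of the other map inside it. Among longer domains 27 in each map did (2.87% of saline and 2.77% of morphine). A short interval has little room for a further boundary, so this count follows in part from the size rule. Taken as 3 counts of the total, a count of 0 allows a share of up to 1.17% of the small saline and 1.11% of the small morphine domains, and the exact intervals reach 1.43% and 1.36%.

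Most small domains held at least 1 loop of their own map. A loop, with both anchors inside, was present in 184 of 257 saline (71.6%, 65.7 to 77.0) and 193 of 270 morphine small domains (71.5%, 65.7 to 76.8), against 80.1% and 78.9% of all domains. The shares were lower than in longer domains by -10.9 points (-17.1 to -5.11) and -9.42 points (-15.5 to -3.74), and a longer domain has more room for a loop. Single loops were found in 61 saline and 61 morphine small domains, and 5 or more in 28 and 47. No loop of either map was present in 51 saline (19.8%) and 58 morphine small domains (21.5%), against 11.9% and 13.1% of the longer domains.

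Per length, small saline domains held more loops than all longer ones combined, but not more than the domains just above the limit. Small saline domains held 491 loops, or 2.19 per Mb (2.00 to 2.39), and longer ones 1.82 per Mb (1.77 to 1.87), a ratio of 1.2 (1.09 to 1.32). For loops of 200 kb span or less, which fit into nearly every domain, the densities were 1.32 and 1.19 per Mb (ratio 1.11, 0.983 to 1.25). Small morphine domains held 644 loops, or 2.79 per Mb (2.58 to 3.01), against 2.70 per Mb (2.64 to 2.77), a ratio of 1.03 (0.95 to 1.12). For short loops the ratio was 0.994 (0.895 to 1.10). Loop density differs several-fold between chromosomes, and small domains were few on the loop-rich chromosome 19. With each chromosome's own longer domains as the expectation, the ratio for loops of any span was 1.23 (1.13 to 1.35) in the saline and 1.09 (1.01 to 1.18) in the morphine map. For short loops it was 1.15 (1.03 to 1.29) and 1.06 (0.956 to 1.17). The morphine ratio for short loops went both ways with the setting, to 0.903 (0.826 to 0.986) with a size limit of 1.4 Mb and to 1.26 (1.08 to 1.45) for loops with 10 kb anchors. Domains of 1.2 to under 1.8 Mb held 2.30 saline and 3.12 morphine loops per Mb of any span, and domains of 0.6 to under 1.2 Mb held 2.19 and 2.74. For short loops the densities were 1.5 (1.38 to 1.63) and 2.11 (1.97 to 2.26) in the former class, and 1.31 (1.16 to 1.47) and 1.67 (1.5 to 1.85) in the latter. Domains of 3 Mb or more held the fewest, 1.60 and 2.55 loops of any span per Mb.

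**Figure D5:**
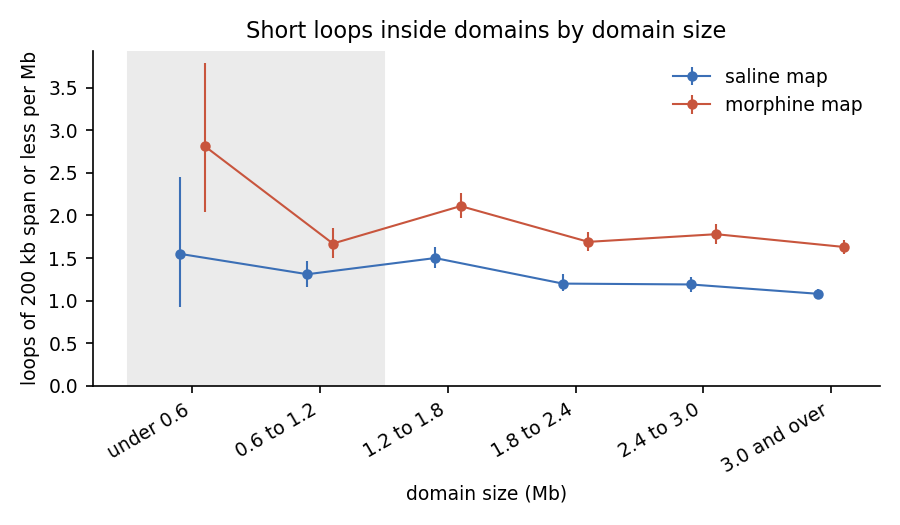
Loops of 200 kb span or less that lie inside domains, per Mb of domain length (vertical axis), by domain size class in Mb (horizontal axis), in the saline map (blue) and the morphine map (red), with exact Poisson 95% intervals; grey marks the small domains. The morphine density is 2.81 per Mb under 0.6 Mb and 1.67 from 0.6 to under 1.2 Mb, and the saline densities there are 1.55 and 1.31.

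The shortest morphine domains, those under 0.6 Mb, had a higher density of short loops than the rest of the small set, a class singled out after its value was seen. These 37 domains held 43 of them, 2.81 per Mb (2.04 to 3.79), against 1.67 per Mb (1.5 to 1.85) from 0.6 to under 1.2 Mb. The 27 saline domains of this size held 18, or 1.55 per Mb (0.92 to 2.45).

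Loop ends were denser in small domains than in all longer ones combined, and more of their loops left the domain. Small domains had 5.08 loop ends per Mb in the saline and 6.63 in the morphine map, and longer ones 3.84 and 5.78. The class from 1.2 to under 1.8 Mb had 5.02 and 6.92, above the 4.98 and 6.33 of domains from 0.6 to under 1.2 Mb. Domains under 0.6 Mb had the most of any size class, 6.90 in the saline and 10.9 in the morphine map. Of the loops with an end inside, 24.2% (21.0 to 27.7) left a small saline domain and 27.4% (24.5 to 30.5) a small morphine domain, against 9.71% and 12.2% for longer domains, a share that shorter length raises by itself. A loop passed over the whole domain in 5 small saline (1.95%) and 10 small morphine domains (3.70%), against 5 of 941 (0.531%) and 7 of 974 (0.719%) longer ones.

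Loops inside small and longer domains had similar medians of enrichment and span. The median enrichment over the donut-shaped background was 4.72-fold (4.44 to 4.96) in small and 4.55-fold (4.48 to 4.62) in longer saline domains. The morphine medians were 3.78-fold (3.58 to 3.98) and 3.77-fold (3.71 to 3.83). The median span was 150 kb in small and 140.0 kb in longer saline domains, and 148 and 135 kb in the morphine map, and the intervals of each pair met or overlapped.

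Few loops joined the 2 ends of a small domain, and their number depended on the tolerance. Within 40 kb of both ends, 0 of 257 saline small domains had one (exact interval up to 1.43%), and 4 of 270 morphine small domains did (1.48%, 0.405 to 3.75). Over all domains the shares were 0.167% and 0.402%. At a tolerance of 0 kb the morphine share was 0, and at 80 kb the shares were 3.11% in the saline and 7.04% in the morphine set, 2.58 points (0.899 to 5.51) and 6.73 points (4.17 to 10.4) above longer domains. With the stricter FDR limit the morphine difference at 40 kb was 0.638 points (-0.0802 to 2.56). A joining loop spans about the length of its domain, and a fixed tolerance is a larger part of a short domain. The part that domain length plays in these differences was not tested. On chromosome 8 the morphine domain from 104720001 to 105680000 had its ends joined by a loop of 970.0 kb, with 11 contacts against 0.675 expected (16.3-fold). At 180840001 to 181440000 of chromosome 2 the joining loop had 11 contacts against 1.30 expected (8.47-fold), and at 143800001 to 143960000 of chromosome 7 it had 19 against 2.23 (8.52-fold). These 3 intervals each lay inside a single longer saline domain. On chromosome 10 from 80880001 to 81320000 the joining loop had 22 contacts against 7.09 expected (3.10-fold). The saline map had the domain too, starting 40 kb later at 80920001, and no saline loop joined its ends within 40 kb. The morphine loop's first anchor, at 80850001 to 80860000, lay over 40 kb from that saline start. A saline loop at the same place would therefore not have counted, and its absence was not tested. Loop ends showed no peak at the ends of small domains that stood clear of the bins inside. The boundary bin held 5.59 loop ends per Mb (4.62 to 6.71) in the saline and 7.31 (6.22 to 8.55) in the morphine map. The bin just inside held 4.23 (3.39 to 5.23) and 6.72 (5.66 to 7.91), and the bin from 120 to 160 kb inside, the fullest of the saline bins and chosen after its value was seen, held 6.69 (5.62 to 7.92) and 7.13 (6.03 to 8.37). The intervals of these bins overlap with that of the boundary bin in each map.

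The domains named for their many loops were the first 5 of each map, with ties taken by chromosome and start. In the saline map the domain on chromosome 19 from 17280001 to 18360000 held 11 loops, and the morphine map had 16 in the same interval. The domain on chromosome 10 from 13640001 to 14520000 held 10 saline and 12 morphine loops. Its strongest loop joined 14220001 to 14230000 and 14280001 to 14290000 in both maps, with 65 contacts against 11.0 expected (5.93-fold) in the saline and 130 contacts against 25 (5.20-fold) in the morphine map. Domains at 53600001 to 54720000 of chromosome 1 and at 30800001 to 31880000 of chromosome 4 held 8 saline loops each, with 8 and 10 morphine loops, and the domain on chromosome 1 from 38120001 to 39000000, 1 of 9 saline domains with 7 loops, held 7 and 8. In the morphine map, after the domain on chromosome 16 described above, the domain on chromosome 3 from 39040001 to 40000000 held 14 morphine and 7 saline loops. Those at 140080001 to 141160000 of chromosome 1 and at 4400001 to 5520000 of chromosome 3 held 12 morphine and 6 saline loops each. In the last of these a loop of 360.0 kb had 109 contacts against 14.1 expected (7.75-fold). These domains were picked for their loops in 1 map, so their excess over the other map leans upward.

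The excess of morphine loops was present in the intervals of both sets. The intervals of the small saline domains held 657 morphine and 491 saline loops, a ratio of 1.34 (1.19 to 1.51), and those of the longer saline domains had a ratio of 1.49 (1.43 to 1.55). The intervals of the small morphine domains held 644 and 439 loops, a ratio of 1.47 (1.30 to 1.66), and those of the longer morphine domains 1.49 (1.43 to 1.55). Both intervals for small domains overlap those for longer ones. Loops of both maps were present in 165 of 257 small saline and 160 of 270 small morphine domains, against 726 of 941 and 720 of 974 longer ones, which have more room. Differential loops of the authors' deposited lists made up 23 of the 491 saline loops (4.68%, 2.99 to 6.95) and 42 of the 644 morphine loops (6.52%, 4.74 to 8.71) in small domains, against 3.89% and 7.13% of the loops in all domains.

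Among small morphine domains, those with a loop inside were recovered in the saline map more often than those without. Both ends were matched for 60 of 193 with a loop (31.1%, 24.6 to 38.1) and for 10 of 77 without (13.0%, 6.41 to 22.6), a difference of 18.1 points (6.98 to 27.1). Over all morphine domains 30.5% had both ends matched. Among domains of 0.6 Mb or more of this set the difference was 18.1 points (5.52 to 27.9). In the saline set the shares were 53 of 184 (28.8%) and 20 of 73 (27.4%), a difference of 1.41 points (-11.3 to 12.7). Longer domains showed the difference in both maps, 23.3 points (16.8 to 28.6) in the morphine and 16 points (8.58 to 22.4) in the saline map. Whether the small sets of the 2 maps differ in this was not tested. End scores moved in the same direction, with medians of 0.575 (0.536 to 0.616) with and 0.512 (0.487 to 0.566) without a loop in the morphine set, and 0.596 (0.563 to 0.633) and 0.562 (0.508 to 0.623) in the saline set. Their part in the result was not tested.

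Loop density differed between the classes of small domains. Chromosomes also differ in loop density, and the part that the placement of each class plays was not tested. Small morphine domains with both ends matched held 3.66 loops per Mb (3.2 to 4.17). Those inside a longer saline domain held 2.67 (2.32 to 3.05) with 1 end matched and 2.56 (1.99 to 3.23) with no end matched. The mixed class, with an unmatched end and inside no domain over 80 kb longer, held 2.14 (1.79 to 2.54). In the saline set the values were 2.48 (2.11 to 2.89), 2.19 (1.82 to 2.62), 0.750 (0.437 to 1.2) and 2.39 (2.06 to 2.76). The 29 saline domains inside a longer morphine domain with no end matched held 17 loops over 22.7 Mb, and the morphine map had 25 loops in them. Longer saline domains of the same class had a like density, 0.775 per Mb (0.650 to 0.918). The domains that overlapped no domain of the other map, 1.2 Mb in the saline and 1.08 Mb in the morphine set, held 0 and 4 loops.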

How the data were processed

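Values come from 3 morphine and 2 saline Hi-C libraries, deposited by the authors as 1 list per group. The loop lists have, per the file headers, HiCCUPS columns: observed counts of contacts, the contacts expected from 4 local backgrounds (a background signal), and 4 q-values per loop, with anchors of 5 or 10 kb. The deposited domain lists give starts and ends in bins of 40 kb and a boundary score at each end. Neither caller, the aligner nor the normalization is given in the sources used here. A human build, hg19, is listed by the submitters' processing notes, but the files hold 20 autosomes and X, so coordinates are printed as deposited, without a build.

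A boundary is the bin next to a domain end. Boundaries were matched within 40 kb. A domain counted as inside a longer one when it reached at most 40 kb beyond it and the other was over 80 kb longer. Loops counted as inside when both anchors lay in the domain. Intervals are 95%: exact Clopper-Pearson for shares, Newcombe for their differences, exact Poisson for counts and densities, exact conditional binomial for ratios, order statistics for medians. A count of 0 is also given as 3 counts of the total. The matched share of ends, the score difference and the density ratio for loops of any span were checked on simulated maps with known answers. These checks used the simulated saline map, and the other measures were not checked in this way. All measures were run with Python 3.11.15, NumPy 2.4.6, pandas 2.3.3 and SciPy 1.17.1.

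The limit of 1.2 Mb and all measures were chosen with earlier results of these data known. Named domains are, per map, the 5 shortest, the 5 with most loops, the 5 with the highest lower end score, the 5 of highest lower score with both ends at the same bin, the 5 inside the longest domains of the other map, and the longest runs, with ties broken by chromosome and start. The domains with joined ends and chromosomes 5 and 8 were named after their values were seen.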

Additional observations from a re-analysis of the deposited data

How the results depend on the processing

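No paired analysis was possible because no file gives single libraries, and for the same reason no replicate could be left out. In all, 33 values were recomputed under up to 12 settings, and 185 of 218 alternative values stayed within the main interval. These intervals are 95% intervals except for the score differences, which have none. For those, the spread of the small domains' median alone was used, without that of the longer domains. Of 108 alternative differences and ratios with an interval, 16 came to exclude no difference and 3 came to include it. Using each chromosome's own density and leaving out domains under 320 kb were chosen after seeing the data. With a size limit of 1.0 Mb, small domains were 12.9% of saline and 13.5% of morphine domains, the saline median score was 0.560 and the saline share inside a longer domain 44.8%. With 1.4 Mb the shares were 29.0% and 29.9%, and the morphine ratio of loops per Mb was 0.949 (0.885 to 1.02), or 0.903 (0.826 to 0.986) for short loops. At a tolerance of 0 kb, 21.4% of saline and 22.4% of morphine small ends were matched, 4.67% and 4.44% of domains at both ends, and 0 morphine domains had joined ends, a difference of 0 points from longer ones. At 80 kb these were 66.1% and 63.1%, 44.0% and 40.7%, all lower than in longer domains with intervals clear of 0, and joined ends rose to 3.11% of saline (2.58 points above longer domains, 0.899 to 5.51) and 7.04% of morphine small domains (6.73 points above). Without chromosomes 10, 16, 19 and 20 the morphine density ratio was 1.14 (1.04 to 1.25) for all and 1.12 (0.994 to 1.26) for short loops, and with 10 kb anchors alone 1.2 (1.07 to 1.33) and 1.26 (1.08 to 1.45). Counting anchors up to 40 kb outside gave a morphine ratio of 1.11 (1.03 to 1.2) and a saline short-loop ratio of 1.22 (1.09 to 1.37), and without the 4 chromosomes the latter was 1.18 (1.03 to 1.35). Small domains with a loop fell to 51.4% (saline, -19.8 points against longer domains) and 50.7% (morphine, -19.5 points) when all 4 FDR values had to be at or under 0.01, and to 61.1% and 63.7% with 10 kb anchors alone. With each boundary counted once the score difference was -0.102 (saline) and -0.0998 (morphine). Loop counts depend on depth, which is unknown for both maps, and the cause of these shifts was not tested.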
